A study of Mus musculus with 6 samples.

Results

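Tumor cluster 4 is the group of tumor cells with the highest histone transcript level among the deposited tumor clusters of mouse hepatocellular carcinoma (HCC), and it also carries the transcripts of the mitotic machinery. Its members are the cells that the deposited annotation calls tumor cells and places in cluster 4, and no cut-off on a measured value was added here. The deposited clusters were made from gene expression, and this cluster was picked with earlier results of these data known. They are 3617 of 29638 tumor cells (12.2%), in 10 tumor clusters, and of 58794 annotated cells (6.15%). Control mice 1, 2 and 3 contributed 787, 840 and 615 of them, and stress mice 1, 2 and 3 contributed 449, 595 and 331.

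The study compared liver tumors of mice exposed to chronic unpredictable mild stress (CUMS), a series of randomly chosen daily stressors, with tumors of mice kept under standard housing. Both groups were male wild-type C57BL/6J mice, 8 weeks old when obtained, and both received H22, a murine HCC cell line expanded as ascites in mice and then implanted into the liver, so that every tumor in the comparison stems from 1 transplanted line. The stress regimen preceded implantation. A tumor of each of 3 control and 3 stress mice was dissociated into 1 single-cell library per mouse, and the labels of the libraries give no pooling of animals.

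A dividing cell copies its DNA and makes new histones, the proteins that wrap DNA, in S phase. It then accumulates cyclin B with the kinase CDK1, condenses its chromosomes, attaches them to the spindle at kinetochores and, once the anaphase-promoting complex (APC/C) has marked cyclin B and securin for destruction, separates them. The replication-dependent histone genes lie in clusters, are read during S phase, and mostly end in a stem-loop without a poly(A) tail. The libraries were primed with poly(dT), so the counts of these genes cover only the molecules that such priming captured.

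Members were deep cells. Their UMIs (unique molecular identifiers, random tags that count each captured RNA molecule once) summed to between 12379320 and 27988576 per mouse, and the median cell held 36299 UMIs against 26526 in other tumor cells. The median share of mitochondrial UMIs was 3.37%, 4.29% and 4.29% in the control group and 5.64%, 6.02% and 5.84% in the stress group, without overlap, and its part in the differences between the groups was not tested. Scrublet, a doublet caller, marked 37 members (1.02%) and 1.45% of other tumor cells. The annotation holds no cell above 8000 genes, and 246 members (6.80%) had over 7500, on average 5.41% ± 3.81 in control and 9.48% ± 1.11 in stress mice (SD, n = 3 mice each). Any pair of libraries shared at most 0.431% of the barcodes of the smaller one. Reads of the control libraries were assigned to genes with Cell Ranger 9.0.0 and those of the stress libraries with 7.1.0, per the file headers. A difference between the mouse groups therefore cannot be told apart from one between program versions.

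Of 10 tumor markers, Krt18, a keratin of simple epithelia, lay between 234 and 558 CPM (the UMI count of a gene after scaling all sums to an equal total) in the members of each mouse, Epcam, an epithelial adhesion protein, between 111 and 201 CPM, and Afp, the fetal liver protein alpha-fetoprotein, between 60.9 and 106 CPM. Igf2 was at 0 in all mice, and H19, Dlk1 and Cldn7 were at most 0.16 CPM. Markers of other cells were low. Summed per mouse, 7 hepatocyte markers reached 0.1 to 0.8 CPM, with Cyp3a11 and Apoc3 at 0 in every mouse, and 7 endothelial markers reached 19.6 to 38.7 CPM. Sums were 10.9 to 32.5 CPM for 8 myeloid, 4.8 to 39.0 CPM for 4 neutrophil, 0.5 to 6.4 CPM for 6 NK/T cell, 0.4 to 1.2 CPM for 4 B cell, 0.6 to 3.5 CPM for 5 stellate cell and 0.9 to 2.7 CPM for 5 red cell markers, the stellate marker Lrat being at 0 throughout.

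The 5 cycling markers were all higher in cluster 4 than in other tumor cells, in each of the 6 mice. Means over mice were 515 CPM against 192 CPM for Top2a, the topoisomerase that untangles chromosomes, 238 against 57.4 CPM for H1f5, a linker histone, and 150 against 58.9 CPM for Prc1, which bundles microtubules of the spindle midzone. Mki67, the proliferation antigen that coats mitotic chromosomes, stood at 105 against 32.6 CPM, and Cenpf, a kinetochore protein, at 127 against 46.6 CPM. Because the clustering used these same genes, this contrast is a description and was not tested.

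A Top2a UMI was seen in 97.5% of members, 73.4% of other tumor cells and 23.4% of the 175 cells annotated as neutrophils. Neutrophils served as a reference because mature ones do not divide, and they held a median of 5394 UMIs. They were not thinned, and whether their UMIs of these genes are background was not tested. With each cell thinned to 5000 UMIs, which left out 3 members, the share was 80.5% in cluster 4 and 40.7% in other tumor cells. For H1f5 the shares were 78.8% in members, 32.0% in other tumor cells and 16.6% in neutrophils, and 47.9% and 13.8% in the members and other tumor cells after thinning. For Mki67 and Cenpf the thinned shares were 36.6% and 39.2% in members and 11.4% and 14.0% in other tumor cells, with 17.7% and 10.3% in neutrophils. After thinning, cluster 4 lay above the unthinned neutrophil share for each of these genes. Other tumor cells, as a pool of several clusters, lay below that share for H1f5 and Mki67 and above it for Cenpf. The neutrophil share therefore does not tell dividing from non-dividing tumor cells. Cluster 1, which is part of that pool, lay above the neutrophil level. Its thinned shares were 33.9% for H1f5, 25.2% for Mki67 and 29.2% for Cenpf.

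Histones filled the top of the ranking. Of the 20 genes with the largest ratio of cluster 4 to other tumor cells, 9 were replication-dependent histones, each higher in cluster 4 in 6 of 6 mice. H2ac10, a core histone H2A gene, led with 23.0 CPM against 5.29 CPM (log2 ratio 2.12), followed by H1f5 (2.06; 1.75 to 2.40 in single mice), H2ac4 (1.95), H2ac24 (1.91), H2ac20 (1.89) and H2ac8 (1.73). The remaining histones among them were the linker histones H1f4 (1.55) and H1f3 (1.48) and the H3 gene H3c3 (1.53). The other genes were mostly of mitosis, namely Mki67 (1.69), the spindle motors Kif4 (1.59), Kif15 (1.54) and Kif11 (1.49), the spindle-pole protein Aspm (1.52), the condensin subunit Ncapg (1.52), the kinetochore scaffold Knl1 (1.48), Cenpf (1.45) and the cytokinesis kinase Cit (1.44). Esco2 (1.59), which locks cohesin onto copied DNA in S phase, and Slfn9 (1.43) completed the list.

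Copies of a histone gene are nearly identical, and how shared reads were assigned is not given in the sources used here, so levels of single histone genes are uncertain and sums over a class are firmer. Genes lower in cluster 4 than in other tumor cells in all 6 mice included Ddah2 (31.6 against 60.2 CPM), which degrades a nitric oxide synthase inhibitor, Mxd4, a repressor that competes with MYC for its partner (13.3 against 24.8 CPM), Krt19, a keratin of bile duct cells (42.3 against 75.9 CPM), and Gas5, a noncoding RNA that accumulates on growth arrest (524 against 890 CPM).

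Over the 10 tumor clusters, the 66 listed histone genes summed to 1336 ± 567 CPM in cluster 4 (SD over the 6 mice of both groups), the highest mean, against 1092 CPM in cluster 17, 878 CPM in cluster 1 and 857 CPM in cluster 14. Cluster 17 exceeded cluster 4 in 1 mouse, and its cells are shallow (median 1852 UMIs) and hold 13.2% called doublets. Cluster 4 also ranked first for condensin and chromosome structure genes (1959 ± 129 CPM) and for homologous recombination and Fanconi repair genes (456 ± 37.4 CPM, above clusters 14 and 1 in every mouse).

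Not every mitotic list put cluster 4 first. Spindle and cytokinesis genes summed to 1574 ± 234 CPM, behind 1637 CPM in cluster 14, which was the higher of the pair in 3 of the 6 mice, and ahead of 1139 CPM in cluster 1. Genes of the cyclin B-CDK1 switch stood at 1863 CPM in cluster 4, 1881 CPM in cluster 14 and 1853 CPM in cluster 1, which lay above cluster 4 in 4 of the 6 mice. For Aurora and passenger genes cluster 4 (831 CPM) came behind cluster 14 (910 CPM) and cluster 1 (853 CPM), each above it in 5 mice. For APC/C and mitotic exit genes it stood at 1196 CPM, behind cluster 14 (1231 CPM) and cluster 1 (1211 CPM), each above it in 4 mice. The S phase and replication list reached 4029 ± 303 CPM, below cluster 1 (4239 CPM) in all 6 mice and above cluster 14 (3388 CPM). So the members carried S phase as well as mitotic transcripts, and the word mitotic describes part of what set the cluster apart.

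**Figure D1:**
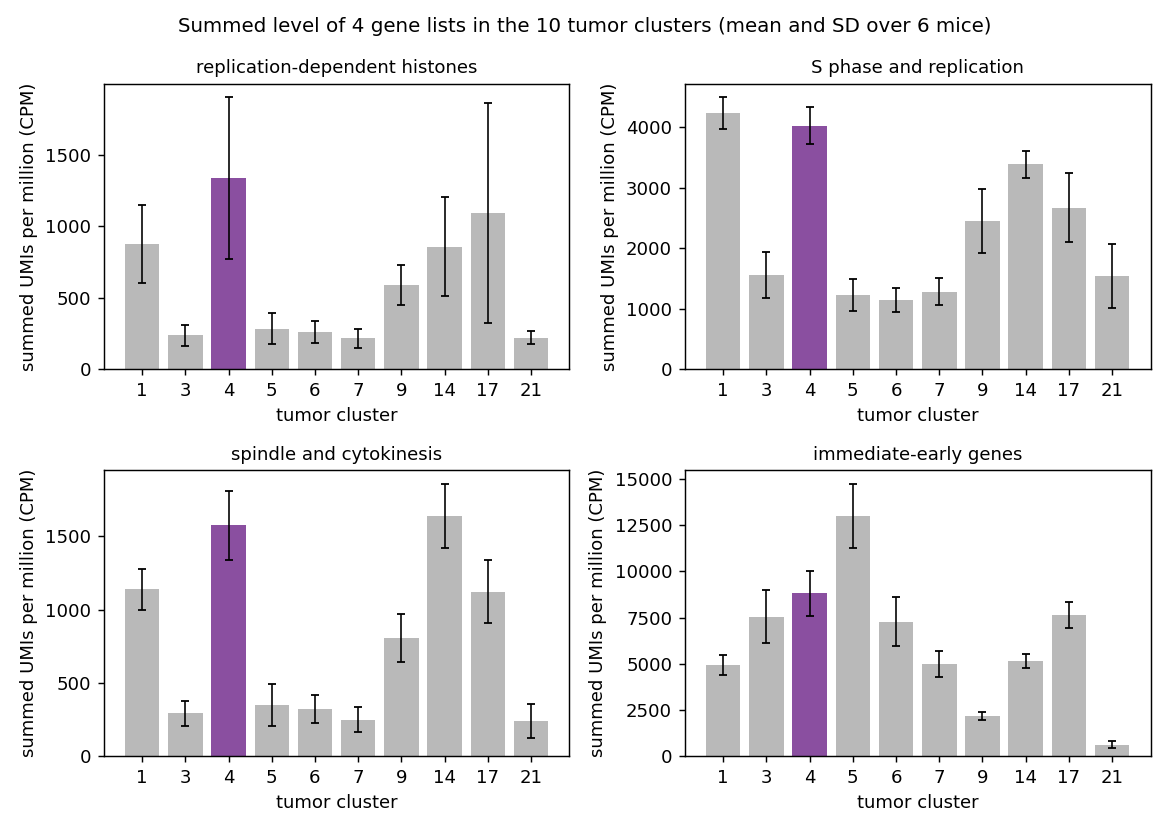
Summed level in CPM (vertical axes) of 4 gene lists in each of the 10 tumor clusters (horizontal axes); bars are means and error bars SDs over the 6 mice of both groups, and purple marks cluster 4. Cluster 4 has the tallest histone bar (1336 CPM), while cluster 1 is taller for S phase genes (4239 against 4029 CPM).

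Compared with cluster 1, which had the highest S phase level, cluster 4 was higher in genes of acute signalling. Fosb, a subunit of the AP-1 transcription factor, stood at 599 against 200 CPM (log2 ratio 1.58). Egr1 stood at 1451 against 550 CPM (1.40), Fos at 1064 against 414 CPM (1.36) and Atf3, a factor induced by stress signals, had a log2 ratio of 1.42, as did the inducible HSP70 chaperones Hspa1b (1.45) and Hspa1a (1.34), each in 6 of 6 mice. The immediate-early list as a whole summed to 8813 ± 1211 CPM in cluster 4 and 4939 CPM in cluster 1, and cluster 5 exceeded both with 13005 CPM. The genes lowest relative to cluster 1 included Psph, the last enzyme of serine synthesis (100.4 against 152.3 CPM), and the proteasome subunit Psmb3 (279 against 411 CPM).

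The sequences before the start sites of 6 members of these lists are shown as examples of linker histones, core histones and mitotic genes, with short motifs known from cell-cycle promoters. Each runs 5′ to 3′ from 200 bases before to 20 bases after the annotated start (RefSeq, GRCm38.p6). Capitals mark matches on either strand to CCAAT, the binding sequence of NF-Y, to TTTGAA, the cell-cycle homology region found in many mitotic promoters, to AAACACA, an element of linker histone genes, and to ATTTGCAT, the octamer.
H1f5, chr13:21780606-21780825, minus strand: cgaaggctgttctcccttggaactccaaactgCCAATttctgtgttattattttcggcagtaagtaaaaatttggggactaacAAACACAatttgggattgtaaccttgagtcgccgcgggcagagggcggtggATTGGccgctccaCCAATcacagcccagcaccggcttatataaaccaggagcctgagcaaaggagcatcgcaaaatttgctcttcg
H1f4, chr13:23622539-23622758, minus strand: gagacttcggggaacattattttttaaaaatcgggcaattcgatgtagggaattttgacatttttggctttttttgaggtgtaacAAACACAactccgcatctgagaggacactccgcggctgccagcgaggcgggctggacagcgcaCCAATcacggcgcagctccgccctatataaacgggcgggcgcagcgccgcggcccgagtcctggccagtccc
H2bc8, chr13:23571200-23571419, plus strand: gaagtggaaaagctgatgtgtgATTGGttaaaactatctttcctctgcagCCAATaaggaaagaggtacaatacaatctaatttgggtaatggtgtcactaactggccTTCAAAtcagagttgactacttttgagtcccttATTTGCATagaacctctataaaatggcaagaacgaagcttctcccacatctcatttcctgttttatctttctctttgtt
Top2a, chr11:99024170-99024389, minus strand: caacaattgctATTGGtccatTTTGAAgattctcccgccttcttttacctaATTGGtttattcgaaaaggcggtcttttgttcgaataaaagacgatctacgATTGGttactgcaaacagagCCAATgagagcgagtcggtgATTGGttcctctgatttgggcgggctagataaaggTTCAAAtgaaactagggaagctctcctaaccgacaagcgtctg
Ccnb2, chr9:70421535-70421754, minus strand: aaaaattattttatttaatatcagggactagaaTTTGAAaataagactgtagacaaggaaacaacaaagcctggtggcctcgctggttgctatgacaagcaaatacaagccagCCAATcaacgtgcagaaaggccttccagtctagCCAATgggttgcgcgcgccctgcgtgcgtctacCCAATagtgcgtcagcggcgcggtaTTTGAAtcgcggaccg
Cdc20, chr4:118437324-118437543, minus strand: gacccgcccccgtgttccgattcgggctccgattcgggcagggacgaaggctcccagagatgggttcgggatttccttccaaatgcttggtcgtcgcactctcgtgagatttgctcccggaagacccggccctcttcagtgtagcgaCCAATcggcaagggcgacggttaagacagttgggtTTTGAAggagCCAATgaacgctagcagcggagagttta
H1f5 and H1f4 hold AAACACA with CCAAT downstream of it, H2bc8 holds the octamer together with TTTGAA and CCAAT, and the mitotic genes Top2a, Ccnb2 and Cdc20 hold TTTGAA and CCAAT as well.

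In the same window over all 27025 genes of the promoter table, TTTGAA occurred in 20.2%, CCAAT in 41.1%, AAACACA in 8.22% and ATTTGCAT in 1.97%. Of the spindle and cytokinesis genes with a promoter in the table, 21 of 26 (80.8%) held TTTGAA, and of all mitotic lists together 49 of 84 (58.3%), against 6 of 38 S phase genes (15.8%). TTTCGCGC or TTTGGCGC, a form of the E2F site, was in 13 of 38 S phase genes (34.2%), 5 of 84 mitotic genes and 0.929% of all genes. AAACACA was in 4 of 5 linker histone genes, the octamer in 7 of 14 H2B and 6 of 17 H2A genes and in none of the mitotic or S phase promoters, and CCAAT in 49 of 57 histone genes (86.0%). TTTGAA was also in 26 of 57 histone genes, of them 11 of 14 H2B, 10 of 17 H2A and 1 of 11 H4 genes. CCAAT was in 58 of 84 mitotic genes (69.0%), so neither TTTGAA nor CCAAT separates histone from mitotic genes. Many H2A and H2B genes face each other, so their windows share sequence and are not independent. A match is a run of letters and does not show that a factor binds there.

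Cluster 4 made up 10.7%, 14.6% and 12.4% of the tumor cells of the control mice (12.6% ± 1.99, SD, n = 3) and 10.4%, 15.4% and 9.88% of those of the stress mice (11.9% ± 3.05, n = 3). The groups overlapped, and the share of cluster 4 among tumor cells differed by -0.69 percentage points, which turned above 0 without control mouse 2 (0.35), stress mouse 1 (0.07) or stress mouse 3 (0.305). The share was not tested, since genes that define the cluster differed between the groups.

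Between stress and control mice many histone genes rose and many mitotic genes fell within cluster 4. For each mouse the UMIs of the members were summed, and all genes went through the quasi-likelihood test of edgeR, in which an adjusted p under 0.05 is a call. Of 14542 genes tested, 1042 were called higher (7.17%) and 995 lower (6.84%) in stress mice, 14.0% in all, and the median log2 fold change of all genes was -0.01. In 34.9% of the genes the values of the groups did not overlap.

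Of 66 listed histone genes, 58 passed the filter on low counts, and 39 of these were called higher and none lower, with a median log2 fold change of 1.08 (range -0.67 to 2.95). The 39 include H1f1 and H4c6, both near the filter's 0.413 CPM, which passed it through the stress mice and would not have passed on the control mice alone. H2ac21, which was not called, passed in the same way. Without these 3 genes, 37 of 55 were called higher. The summed level of the 66 listed genes was 927, 749 and 817 CPM in control mice 1, 2 and 3 but 1773, 1708 and 2039 CPM in stress mice. Every stress mouse thus lay above every control mouse, and the mean rose from 831 ± 89.6 to 1840 ± 176 CPM (SD, n = 3 each), 2.21-fold. The number of histones called higher ranged from 25, without control mouse 3, to 38, without control mouse 2, where 1 histone was also called lower. Cells thinned to 5000 UMIs gave 29. Membership in cluster 4 itself depends on such genes. Over all 29638 tumor cells, a sum that does not depend on the border between tumor clusters, histones stood at 438 ± 22.1 CPM in control and 781 ± 97.3 CPM in stress mice, 1.78-fold, again without overlap.

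Among the linker histones, which bind the DNA between nucleosomes, H1f5 (chr13:21779883-21780625) read 141, 154 and 126 CPM in control mice. Under stress it read 283, 358 and 370 CPM, which gave a log2 fold change of 1.23 ± 0.11 (SE, adjusted p = 0.0011). H1f4 read 63.8, 52.5 and 58.6 CPM against 149, 166 and 145 CPM (1.36 ± 0.10, adjusted p = 0.0007). Both rose more than 2-fold with no overlap between the groups. H1f3 (1.28) and H1f2 (0.87) were called as well. H1f1, the remaining linker histone, read 0, 0.21 and 0.15 CPM in control and 1.62, 0.79 and 0.65 CPM in stress mice, and was called in 1 of the 6 fits that left out a mouse.

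Core histones followed. H2A genes, of which 10 of 16 were called, summed to 199 CPM in control and 520 CPM in stress mice, 2.61-fold, and H2B genes (10 of 14) to 83.8 and 172 CPM, 2.05-fold. H4 genes went from 180 to 347 CPM, 1.92-fold, and H3 genes (6 of 11) from 127 to 220 CPM, 1.74-fold. Of the H4 genes 8 of 12 were called, and these include H4c6, which passed the filter only through the stress mice. H2ac24 read 50.4, 43.4 and 28.5 CPM against 122, 136 and 190 CPM (log2 fold change 1.84, adjusted p = 0.0027). H3c3, at 49.0, 28.8 and 42.7 CPM against 80.9, 58.2 and 88.9 CPM, was called (0.89, adjusted p = 0.032), but in only 3 of the 6 fits that left out a mouse. Histones that were not called included H3c10 (-0.67, adjusted p = 0.106), H2bc12 (0.40), H4c9 (0.30) and H2ac11 (-0.01). Of the tested members on chromosome 13, where the large cluster lies, 35 of 49 were called, of those on chromosome 3 there were 3 of 7, and the 1 member on chromosome 6 was called, while the 1 tested member on chromosome 11 was not (-0.22).

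**Figure D2:**
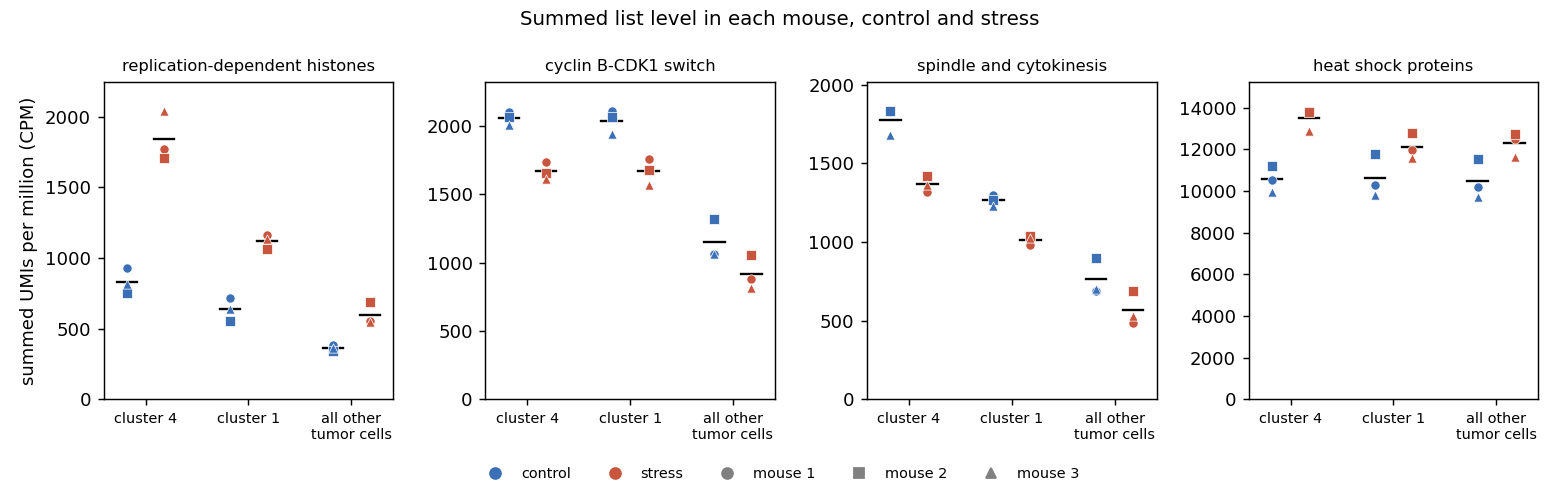
Summed level in CPM (vertical axes) of 4 gene lists by mouse in cluster 4, cluster 1 and all other tumor cells, which include cluster 1 (horizontal axes); circles, squares and triangles are mice 1, 2 and 3, blue is control, red is stress and the black line is the group mean. In cluster 4 the 3 stress mice sit above the control mice for histones (1708 to 2039 against 749 to 927 CPM) and below them for cyclin B-CDK1 genes (1614 to 1735 against 2005 to 2101 CPM).

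Mitotic genes moved the other way. Over the 6 mitotic lists, 46 of 100 genes were called lower in stress mice and none higher, beside 6.84% called lower over all genes. Their median log2 fold change was -0.34, and 84 of the 100 lay below 0, while 48.8% of all genes lay above 0. Among the regulators of mitotic entry, 10 of 16 genes of the cyclin B-CDK1 switch were called lower (median -0.46). Their summed level was 2101, 2068 and 2005 CPM in control and 1735, 1656 and 1614 CPM in stress mice.

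Ccnb1, cyclin B1, read 147, 127 and 137 CPM in control and 86.5, 92.0 and 72.0 CPM in stress mice (log2 change -0.75 ± 0.11, adjusted p = 0.0061). Its partner kinase Cdk1 read 347, 351 and 323 CPM against 245, 254 and 229 CPM (-0.52). Cdc25b, a phosphatase that switches CDK1 on, went furthest, at 14.6, 14.5 and 13.8 CPM against 5.94, 6.46 and 7.51 CPM (-1.15). All of these fell with no overlap between the groups, and each stayed called whichever mouse was left out. So did the kinase Plk1 (-0.75), Ccnf (-0.75) and Foxm1, the transcription factor of many mitotic genes (-0.51). Cdc25c (-0.76), Ccnb2 (-0.70), the PLK1 activator Bora (-0.41) and Ccna2, cyclin A2 (-0.36), were called in 3, 2, 1 and 0 of the 6 fits that left out a mouse. Without control mouse 1, control mouse 3 or stress mouse 2 the list held 6 calls, as it did in thinned cells.

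Of the 6 Aurora kinase and chromosomal passenger genes, 4 were called lower, and 2 in thinned cells. Aurka, the Aurora kinase of the spindle poles, read 78.2, 87.2 and 69.6 CPM in control and 35.6, 39.1 and 36.7 CPM in stress mice (-1.11 ± 0.10, adjusted p = 0.0011), and no stress mouse reached the lowest control value. The passenger complex members Incenp (-0.69) and Cdca8 (-0.59) were called in every fit that left out a mouse, and their kinase Aurkb (-0.34) in 1 of 6.

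All 28 spindle and cytokinesis genes lay below 0 (median -0.46) and 18 were called. Kif2c, a kinesin that takes microtubules apart at centromeres, read 35.4, 35.8 and 31.1 CPM in control and 16.0, 20.5 and 17.3 CPM in stress mice (-0.96). The motors Kifc1 (-0.94), Kif22 (-0.83) and Kif20a (-0.63) and the cytokinesis proteins Racgap1 (-0.54) and Kif23 (-0.53) fell likewise and stayed called in all 6 fits that left out a mouse. The list as a whole was more sensitive, with 8 calls without control mouse 1, control mouse 3 or stress mouse 2, 11 without stress mouse 3 and 6 in thinned cells. The marker Prc1, at 197, 157 and 161 CPM against 138, 131 and 119 CPM, was called (-0.44, adjusted p = 0.041), in 2 of those 6 fits.

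Kinetochore and chromosome genes held fewer calls. Of 22 kinetochore and checkpoint genes 4 were called lower and none higher (median -0.20), beside 6.84% called lower over all genes. Among the 4 were Cenpa, the histone H3 variant of centromeres (-0.79), and the checkpoint protein Bub3 (-0.60), both in all fits that left out a mouse. Without control mouse 1 or control mouse 3 the list held 2 calls. Cenpf read 153, 137 and 129 CPM in control and 121, 121 and 102 CPM in stress mice and was not called (-0.31, adjusted p = 0.085). Of 16 condensin, cohesin and chromosome structure genes 4 were called lower (median -0.08). They were Espl1, the separase that cuts cohesin (-0.67), Pttg1, the securin that restrains it (-0.63), and the condensin subunits Ncapd2 (-0.65) and Ncaph2 (-0.46). In thinned cells this list held 1 call, with a median of -0.006. Top2a, at 554, 636 and 517 CPM against 407, 505 and 469 CPM (-0.34, adjusted p = 0.059), and Mki67, at 114, 108 and 102 CPM against 98.6, 114 and 92.9 CPM (-0.13, adjusted p = 0.395), were not called.

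Of 12 genes of the APC/C and mitotic exit, 6 were called lower (median -0.27). The activators Fzr1 (-0.97) and Cdc20, the latter at 98.1, 74.9 and 88.5 CPM in control and 54.7, 64.8 and 39.7 CPM in stress mice (-0.74), were both called, as were the ubiquitin-conjugating enzyme Ube2c (-0.66) and the subunit Anapc11 (-0.65). Cdc20 was called in 3 of the 6 fits that left out a mouse, and the other 3 genes in all of them. Without control mouse 1, control mouse 3 or stress mouse 1 the list held 3 calls. Over all tumor cells the summed level of each of the 6 mitotic lists was also lower on average in stress mice, with cyclin B-CDK1 genes at 1294 ± 141 CPM in control and 1026 ± 135 CPM in stress mice and spindle genes at 926 ± 127 and 689 ± 129 CPM. The groups did not overlap for these, the Aurora and the APC/C lists, and overlapped for the kinetochore and condensin lists.

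Of 48 S phase genes other than histones, 7 were called higher and 1 lower, with a median of 0.09. Both directions together are a share near the 14.0% called over all genes, of which 7.17% were higher and 6.84% lower. Pole, the catalytic subunit of the leading-strand polymerase, read 23.3, 24.2 and 21.9 CPM in control and 45.0, 40.5 and 54.0 CPM in stress mice (0.97). Prim1, the primase subunit that starts each strand, read 46.9, 48.0 and 48.5 CPM against 83.4, 76.4 and 101 CPM (0.83). Pcna, the sliding clamp, read 118, 160 and 133 CPM against 199, 221 and 221 CPM (0.61). In these genes no stress mouse overlapped the control mice, and Pole, Prim1 and the licensing factor Cdt1 (0.51) were called in every fit that left out a mouse. Cyclin E2 (Ccne2, 0.67), Gins1 (0.64) and Tyms (0.54) were called in 3, 2 and 4 of these fits, and the clamp loader subunit Rfc5, which fell (-0.40), in 1. The list held 3 calls higher without control mouse 3, 4 without control mouse 1 and 12 without control mouse 2.

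Slbp, which binds the stem-loop of histone messages and supports their processing and translation, read 161, 196 and 167 CPM in control and 187, 191 and 202 CPM in stress mice (0.11, adjusted p = 0.45). The helicase subunit Mcm2 was likewise not called (0.02, adjusted p = 0.95). The whole S phase list summed to 3732, 4042 and 3852 CPM against 4068, 4593 and 3886 CPM, with overlap. Among histone variants made outside S phase, H2ax, the H2A variant phosphorylated at DNA breaks, fell (-0.81), as did Cenpa, while H2az1 (0.16) and H3f3b (0.31) were not called. Of 17 recombination and Fanconi genes Rmi2 (0.70) and Palb2 (-0.52) were called, a share near the 14.0% of all genes, in 2 and 1 of the 6 fits that left out a mouse. Of 20 G1 and CDK inhibitor genes 4 were called lower and none higher, beside 6.84% lower over all genes, namely the CDK4/6 inhibitors Cdkn2d (-0.89) and Cdkn2c (-0.61), Cdk6 itself (-0.50) and Ccnd3, cyclin D3 (-0.61), the last in 1 of those fits.

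**Figure D3:**
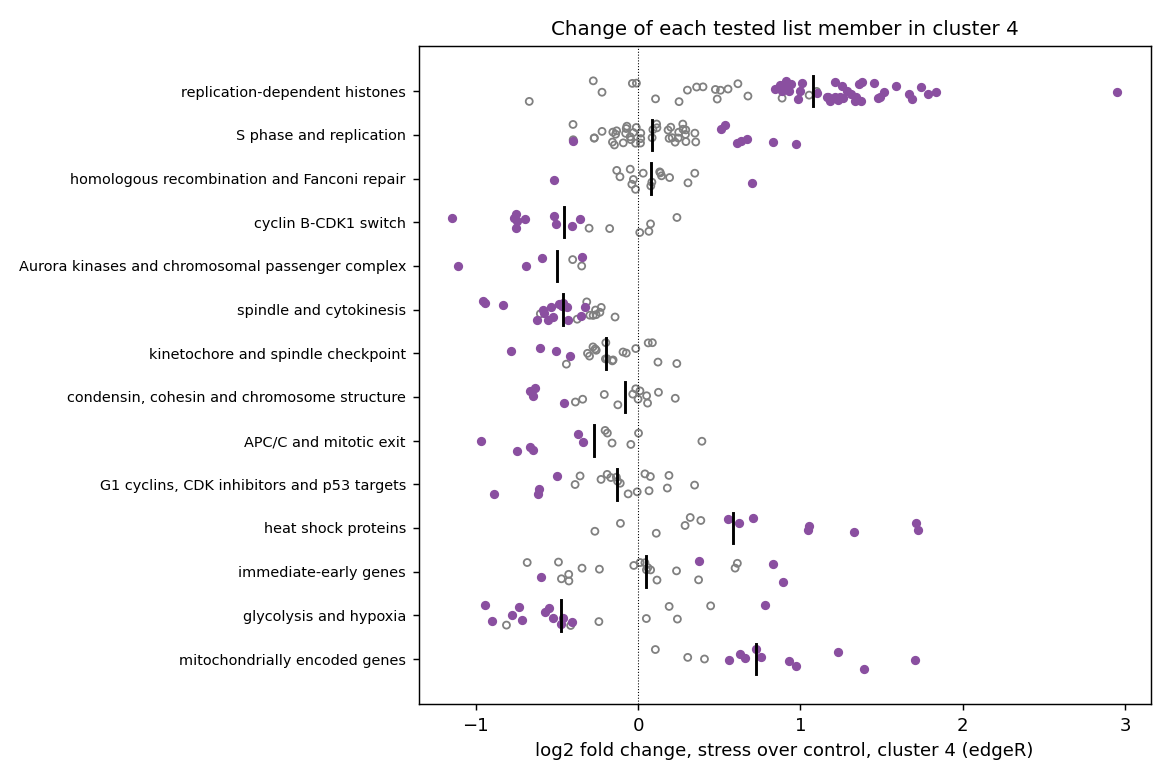
Log2 fold change, stress over control, of each tested member of 14 gene lists within cluster 4 (horizontal axis), by list (vertical axis); filled purple points have an adjusted p under 0.05, open grey points do not, and the black line is the list median. Histones lie mostly to the right (median 1.08), spindle genes entirely to the left of 0 (median -0.46) and S phase genes around 0 (median 0.09).

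Within cluster 4, histone levels were then followed across cells ordered by mitotic transcripts, the share of a cell's UMIs that came from the 100 genes of the mitotic lists. No histone of the replication-dependent list entered the ranking. The cells of all mice were split into 4 bins at the same mitotic shares, 0.664%, 0.829% and 1.02%, which are the means over mice of the shares that cut each mouse's cells into 4 equal bins. The most mitotic bin held 38.6%, 34.9% and 32.4% of the cells of control mice 1, 2 and 3 but 14.9%, 15.6% and 12.7% of those of stress mice, down to 42 cells in stress mouse 3.

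From the least to the most mitotic bin, the histone sum was 477, 1055, 1176 and 908 CPM in control mouse 1, 371, 854, 888 and 679 CPM in control mouse 2, and 438, 965, 1005 and 817 CPM in control mouse 3. In every control mouse the histones were lower at both ends than in the middle bins. In stress mouse 1 the values were 1150, 2154, 2407 and 1609 CPM, in stress mouse 2 909, 1750, 2098 and 2168 CPM, and in stress mouse 3 1213, 2612, 2457 and 2617 CPM. Every stress mouse lay above every control mouse in each of the 4 bins. The ratio of stress to control was 2.55, 2.27, 2.27 and 2.66, beside 2.21 for the whole cluster.

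S phase genes overlapped between the groups in all 4 bins, with ratios of 0.95, 1.01, 0.98 and 1.10. In the most mitotic bin they read 3002, 3079 and 2907 CPM in control and 2764, 3770 and 3360 CPM in stress mice. The mitotic genes, which set the bins, still stood lower in that bin under stress (11961 against 13146 CPM, without overlap). Common cut points make the mitotic share alike and not the position in the cell cycle, because 46 of the 100 genes were themselves called lower in stress mice. Where the cells of each mouse were instead cut into 4 equal bins of their own, the histone ratio was 1.39, 1.89, 2.16 and 3.33. Those bins are not matched in mitotic share either, since the most mitotic one held 10960 CPM of mitotic genes in stress and 14118 CPM in control mice. Neither split therefore compares cells known to be at the same stage. Both splits were made after the data were seen.

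**Figure D4:**
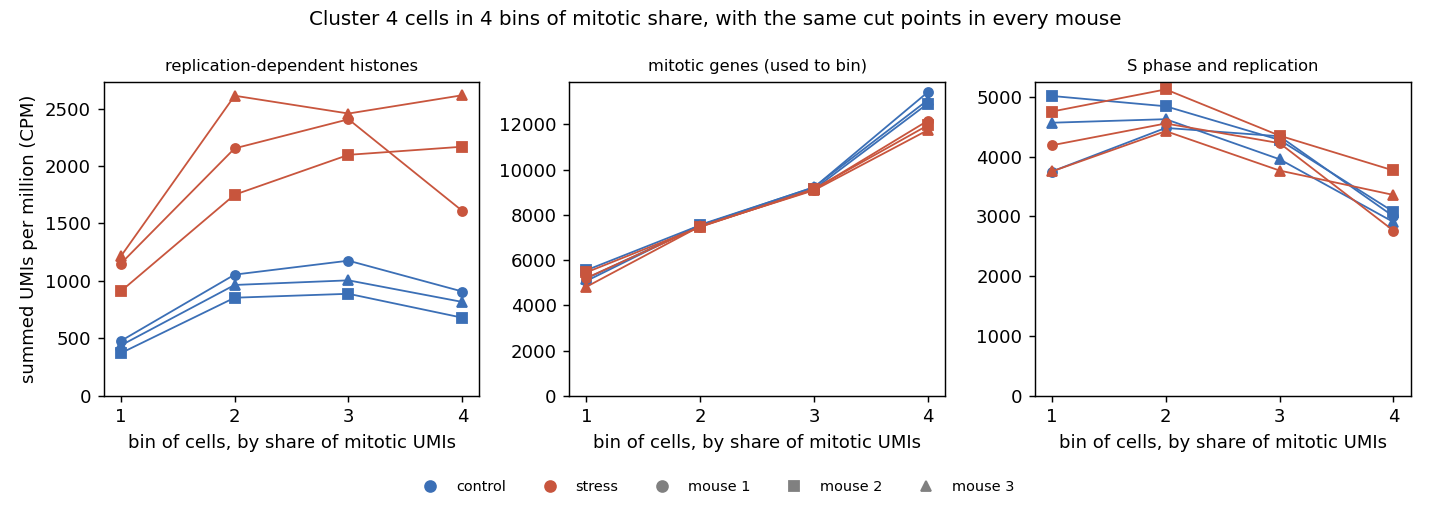
Summed level in CPM (vertical axes) in 4 bins of cluster 4 cells, cut at the same mitotic shares in every mouse and ordered from the least to the most mitotic (horizontal axes); each line is a mouse, blue control and red stress. Histone lines of stress mice lie above those of control mice in every bin (1609 to 2617 against 679 to 908 CPM in the last), while the lines of S phase genes overlap.

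Outside the cell cycle, the heat shock proteins rose, with 8 of 14 called higher, none lower, and a median of 0.59, beside 7.17% called higher over all genes. Hspa1b read 155, 73.0 and 101 CPM in control and 365, 283 and 454 CPM in stress mice (1.71, adjusted p = 0.0070), and Hspb1, a small chaperone of the cytoskeleton, 225, 188 and 172 CPM against 619, 434 and 439 CPM (1.33, adjusted p = 0.0038). Hspa1a, at 153, 33.7 and 97.6 CPM against 403, 231 and 320 CPM (1.72, adjusted p = 0.041), was called in 2 of the 6 fits that left out a mouse. Every stress mouse lay above every control mouse in these genes. The co-chaperones Hsph1 and Dnajb1 (both 1.05), Dnaja1 (0.71), Hsp90aa1 (0.62) and Hspa8 (0.55) were called as well. Without control mouse 3 the list held 3 calls, and without stress mouse 1 or stress mouse 3 it held 5.

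The mitochondrially encoded genes rose too, with 10 of 13 called higher, beside 7.17% over all genes, and a median of 0.72. They were led by mt-Atp8 (1.71), and this goes with the higher mitochondrial share given above. Their sum had a ratio of stress to control of 1.46 in cluster 4, 1.32 in other tumor cells and 1.33 in cluster 1. None of them was called in the interaction tests described below. Of 22 immediate-early genes 3 were called higher and 1 lower, together a share near the 14.0% called over all genes (7.17% higher and 6.84% lower). Atf3 read 176, 187 and 181 CPM in control and 317, 269 and 447 CPM in stress mice (0.89) and Ier5 had a log2 fold change of 0.83, whereas Ier2 fell (-0.60, called in 2 of the 6 fits that left out a mouse) and Jund (0.38) was called in 1. Without stress mouse 3 the list held 2 calls higher and 3 lower, and without control mouse 2 it held 3 higher and 2 lower. With none lower, it held 1 higher without control mouse 3, 5 without stress mouse 2, and 2 without control mouse 1 or stress mouse 1. Fos, at 1415, 1174 and 1315 CPM against 835, 461 and 1183 CPM (-0.68, adjusted p = 0.144), and Egr1, at 1729, 1607 and 1675 CPM against 1049, 842 and 1804 CPM (-0.47, adjusted p = 0.22), were not called.

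Glycolysis and hypoxia genes fell, with 11 of 19 called lower and 1 higher (median -0.47), beside 6.84% lower and 7.17% higher over all genes. They included the glucose transporter Slc2a1 (-0.74), the pyruvate kinase Pkm (-0.72), the lactate dehydrogenase Ldha (-0.55) and the hypoxia-induced Bnip3 (-0.94) and Ankrd37 (-0.90), all called in every fit that left out a mouse, and the list summed to 6517, 6863 and 6699 CPM in control and 4825, 5428 and 4913 CPM in stress mice. The exception was the regulator Pfkfb3 (0.78, called in 1 of those fits). Without control mouse 3 the list held 6 calls lower. The fall was not particular to cluster 4, since the ratio of stress to control for the sum was 0.755 there, 0.784 in other tumor cells and 0.779 in cluster 1. No member was called in the interaction tests described below.

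Of the 13 tested glucocorticoid receptor and response genes, 2 were called higher, Errfi1 (0.49) and the receptor Nr3c1 itself (0.29, adjusted p = 0.048), in 1 and 0 of the 6 fits that left out a mouse. These are 2 of 13 genes, beside 7.17% called higher over all genes, and neither call held in more than 1 of those fits. Without control mouse 2 the list held 1 call higher and 4 lower, without a filter on low counts 1 higher and 2 lower. Tsc22d3 read 207, 47.1 and 145 CPM in control and 88.7, 31.7 and 63.5 CPM in stress mice (-1.14, adjusted p = 0.17), with control mouse 2 inside the range of the stress mice, and Fkbp5 was not called (-0.44, adjusted p = 0.38). None of 14 interferon-stimulated genes was called (median 0.29), and of 10 MHC class I genes 1 was called, H2-K1, which fell (-0.47). Over all genes 6.84% were called lower, and 1 call among 10 genes is too few to set against that share. Among markers of other cells, 1 of 7 endothelial genes was called higher, again too few to set against the 7.17% called higher over all genes. It was Pecam1 (2.47 to 3.07 CPM in control and 5.0 to 8.48 CPM in stress mice), and the list held no call without control mouse 3 or in thinned cells. The endothelial sum overlapped between the groups, at 23.6 ± 3.55 CPM in control and 31.0 ± 7.92 CPM in stress mice (SD, n = 3 each). Cd4 read at most 0.23 CPM in control and 0.81 to 2.15 CPM in stress mice, and it passed the filter on low counts only through the stress mice. Stray RNA of other cells and expression by the members were not told apart here.

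Of genes with at least 20 CPM, the largest rises among those called without overlap were Lars2, the mitochondrial leucyl-tRNA synthetase (2.27), Anxa11os (2.19), Camk1d, a calcium-dependent kinase (2.04), H2ac24, Gphn, the scaffold gephyrin (1.83), Agbl3 (1.75), Hspa1a, Hspa1b, Cmss1 (1.62), H2ac4 (1.59), Aldh1a3, an enzyme of retinoic acid synthesis (1.59), and Plxdc1 (1.58). Camk1d read 143, 150 and 142 CPM in control and 465, 631 and 743 CPM in stress mice. In other tumor cells its mean was 150 CPM in control and 779 CPM in stress mice, and every mouse of the stress group lay above the control group in cluster 4. Each of these genes also rose on average in the other tumor cells, as Lars2 (93.1 to 485 CPM), Gphn (154 to 716 CPM) and Cmss1 (112 to 464 CPM) did. In stress mice the means of Lars2, Camk1d, Gphn, Agbl3 and Cmss1 were higher in those cells than in cluster 4. What the reads counted for these genes stem from was not tested. In the interaction test described below, Hspa1a, Hspa1b and Aldh1a3 rose more in cluster 4 and Cmss1 less. Agbl3 was called in 3 of the 6 fits that left out a mouse.

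The largest falls were Dapk1, a death-associated kinase (-2.09), Ryr3, a calcium release channel (-1.70), Ctla4, better known as an inhibitory receptor of T cells (-1.63), Eno1b (-1.59), Map7, a microtubule-associated protein (-1.52), Nudcd3 (-1.40), Plxdc2 (-1.38), ENSMUSG00000121655 (-1.37), Wdr89 (-1.36), Rps27rt (-1.30), Sntg1 (-1.30) and Rpl37rt (-1.23). Ctla4 read 61.9, 50.3 and 53.1 CPM in control and 20.1, 19.8 and 14.5 CPM in stress mice, while the summed NK/T cell markers of the members did not exceed 6.4 CPM, and in other tumor cells Ctla4 went from 76.2 to 23.8 CPM. The other named falls were lower on average in the other tumor cells of stress mice too, as Dapk1 (61.6 to 13.7 CPM) and Nudcd3 (470 to 161 CPM) were. None of the named falls was called in the interaction with those cells. Eno1b, Rps27rt and Rpl37rt are near-identical copies of other genes, so reads shared with those cannot be told apart from their own.

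Whether the stress effect in cluster 4 differed from that in the other tumor cells was tested as an interaction in edgeR with the mouse as a term. Of 17531 genes, 33 changed more upward in cluster 4 (0.188%) and 2 more downward (0.0114%), 35 in all (0.200%). The median of this difference over all genes was 0.04, and 1967 genes had an unadjusted p under 0.05.

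Of 14 heat shock genes, 4 were called. Hspa1a went from 94.9 to 318 CPM in cluster 4 and from 83.9 to 156 CPM in other tumor cells, a log2 difference of 0.99 ± 0.14 (SE, adjusted p = 0.018). Hspa1b differed by 0.98 ± 0.10 (adjusted p = 0.0090) and Hspb1 by 0.71 ± 0.08 (adjusted p = 0.0090), although the level of Hspb1 was lower in cluster 4 than in other tumor cells in every mouse. The same test against cluster 1 called none of the 14, with Hspa1a at 0.20 (adjusted p = 0.86) and Hspa1b at 0.25 (adjusted p = 0.79). The summed heat shock level had a ratio of stress to control of 1.28 in cluster 4, 1.35 in cluster 5 and 1.14 in cluster 1. Atf3 went from 181 to 345 CPM in cluster 4 and from 187 to 208 CPM in the other tumor cells (0.81, adjusted p = 0.040). Slc8b1, the mitochondrial sodium/calcium exchanger, differed by 0.82 and Sema3e, a guidance cue, by 0.66, while Ldlrad4 (-0.36) and Cmss1 (-0.32) differed downward.

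No member of the histone, mitotic or S phase lists was called in this interaction. Kntc1, a kinetochore gene outside the lists and named after its value was seen, was called (0.49, adjusted p = 0.0499). The 58 tested histones had a median difference of 0.53, 51 of them above 0, beside 59.6% of all genes. All 48 S phase genes and 24 of 28 spindle genes were above 0 too, so this count is not particular to histones. The ratio of stress to control for the histone sum was 2.21 in cluster 4 against 1.76 in cluster 1 and 3.43 in the shallow cluster 17. It was 2.09 in cluster 14, 2.01 in cluster 5 and between 1.43 and 1.70 in clusters 3, 6, 7 and 9. In cluster 21 it was 1.02, and there alone the groups overlapped. Cyclin B-CDK1 genes had a ratio of 0.81 in cluster 4 and 0.82 in clusters 1 and 14, without overlap. In the other 7 clusters the groups overlapped, with ratios from 0.73 in cluster 21 and 0.79 in clusters 7 and 9 to 1.11 in cluster 5. The number of interaction calls changed with the mice in the fit. Without stress mouse 1 there were 0, without control mouse 1, control mouse 3 or stress mouse 3 there were 8, 5 and 9, and without control mouse 2 or stress mouse 2 there were 112 and 184.

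Against cluster 1 alone, 25 of 15404 genes differed (0.162%), 23 upward (0.149%) and 2 downward (0.0130%). Fos fell from 1302 to 827 CPM on average in cluster 4, which on its own was not called, and read 671, 646 and 534 CPM in control and 247, 167 and 221 CPM in stress mice in cluster 1, a log2 difference of 0.81 (adjusted p = 0.026). Egr1 differed by 0.72 (adjusted p = 0.0023), with means of 1670 and 1232 CPM in cluster 4 and 765 and 334 CPM in cluster 1, and stayed called whichever mouse was left out. So did the small nucleolar RNA host gene Snhg12 (0.66), and Snhg1 (0.66), Snhg16 (0.65) and 5430416N02Rik (0.65) differed upward too, in 3, 5 and 3 of those fits.

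Of the histones, 4 of 58 were called against cluster 1, H2ac8 (0.50), H2ac24 (0.48), H3c3 (0.45) and H3c6 (0.43), with a median of 0.39 over the list. Camk1d differed downward (-0.38), rising from 93.4 to 526 CPM in cluster 1 and from 145 to 613 CPM in cluster 4. Leaving out a mouse gave between 3 and 65 calls.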

How the data were processed

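Tumors of 3 control and 3 stress mice were measured as 1 single-cell RNA library each (10x Genomics). The authors deposited unnormalized UMI counts of every gene in every cell, made with Cell Ranger 9.0.0 (control) or 7.1.0 (stress) per the file headers, and a table of cell types and clusters. Seurat and mm10 are named in the submitters' processing notes. Alignment settings and counting annotation: not given in the sources used here. Annotated cells have 200 to 8000 genes, fewer than 80000 UMIs and at most 20% mitochondrial UMIs, and depth per library was 149558935 to 187728350 UMIs. Of 34099 gene identifiers 32061 matched GENCODE M21 (GRCm38), which gave gene positions, and promoters came from RefSeq (GRCm38.p6).

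The members and gene lists were chosen with earlier results of these data known. UMIs were summed per mouse and part and tested in R 4.3.3 with edgeR 4.0.16 (filterByExpr, TMM, quasi-likelihood test, Benjamini-Hochberg adjustment, threshold 0.05), and interactions had the mouse as a term. This step was checked on simulated data. P-values of the stress comparison measure the spread between mice. Those of the interactions measure the spread over mice of the difference between cluster 4 and the compared cells of the same mouse. A planned permutation test of the share of cluster 4 is not reported, because its defining genes differed between groups. Doublets were called with scanpy 1.11.5 (Scrublet) and kept. Sums, shares, bins and figures used Python 3.11.15, numpy 2.4.6, scipy 1.17.1, pandas 2.3.3 and matplotlib 3.10.9.

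Named genes are list members, the 20 leading genes of cluster 4 (mean of at least 20 CPM, a UMI in at least 25% of members), the 12 largest called rises and falls without overlap, and the 6 largest called differences in each direction of an interaction, again from 20 CPM, leaving out Gm, Rik and mitochondrial names for rises and falls. Genes lower in cluster 4 and genes compared with cluster 1 were chosen after their values were seen, as were uncalled genes given as examples. Alternatives were no filter on low counts, RLE normalization, DESeq2 1.42.0, a log2 size over 0.15, no doublets, cells thinned to 5000 UMIs, 331 cells per mouse, the replicate number as a block, and leaving out each mouse.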

Additional observations from a re-analysis of the deposited data

Results flagged for a closer look

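The stress effect in cluster 4 differed from that in other tumor cells in 35 genes by the interaction test of edgeR. The named ones, as log2 differences, were Hspa1a (0.99), Hspa1b (0.98), Slc8b1 (0.82), Atf3 (0.81), Hspb1 (0.71), Sema3e (0.66), Ldlrad4 (-0.36) and Cmss1 (-0.32). Leaving out a mouse kept Hspa1b and Hspb1 called in 5 of 6 fits, Hspa1a in 4, Slc8b1 and Atf3 in 3, Sema3e and Ldlrad4 in 2 and Cmss1 in 1.

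Against cluster 1 the stress effect differed in 25 genes by the same test, among them Fos (0.81), Egr1 (0.72), Snhg12 (0.66), Snhg1 (0.66), Snhg16 (0.65), 5430416N02Rik (0.65) and Camk1d (-0.38). None of the 14 heat shock genes was called against cluster 1. Fos, Snhg1, 5430416N02Rik and Camk1d were called in 3 of the 6 fits that left out a mouse, Snhg16 in 5, and Egr1 and Snhg12 in 6. In both comparisons the control libraries were counted with another Cell Ranger version than the stress libraries, and the mitochondrial share was higher in the stress mice. The part of either in these differences was not tested.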

How the results depend on the processing

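Of the 2037 genes called between stress and control mice in cluster 4, no alternative reversed a named gene. Thinning every cell to 5000 UMIs gave 646 calls, 597 of them shared with the 2037, and leaving out a mouse gave 673 to 2779. For the interaction with other tumor cells (35 calls) RLE normalization gave 11, no filter on low counts 496, DESeq2 94 and thinning 11, with 0 to 184 leaving out a mouse. For the interaction with cluster 1 (25 calls) no filter gave 247, and leaving out a mouse gave 3 to 65. The difference between cluster 4 and other tumor cells in the share of cells with a Top2a UMI was 24.1 percentage points and 39.7 after thinning. Over 167 named genes and all alternatives of the stress comparison, 1856 of 2167 values kept direction and side of the threshold, 300 lost the call and 11 gained it, and none reversed. In the interactions 62 of 88 and 59 of 77 values kept their call. With the replicate number as a block, 2445 genes were called, 1935 of them shared with the 2037. Deviations of equal-numbered mice correlated at 0.39, 0.25 and -0.15. Control mouse 2 correlated best with stress mouse 3 (0.29) and control mouse 3 with stress mouse 1 (0.27). With 3 mice per group these values cannot decide whether the numbers pair the mice. The paired differences in the share of cluster 4 were -0.31, 0.75 and -2.51 percentage points. Leaving out a mouse gave differences in the share of cluster 4 among tumor cells of -2.45 to 0.35 percentage points and a histone ratio of 3.07 to 3.54 for the top bin cut within each mouse (3.33, against 2.66 with common cut points). Depth limits genes near 1 CPM, and 3 mice per group limit every comparison.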
